A study of Homo sapiens with 3 samples.

Results

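The genes described here are 10 transcription factors, namely the AP-1 proteins FOS (P01100), FOSL2 (P15408), JUN (P05412), JUNB (P17275) and JUND (P17535), the ATF/CREB proteins ATF3 (P18847) and CREB3 (O43889), the ETS factor ETV5 (P41161), the aryl hydrocarbon receptor AHR (P35869) and the zinc finger factor KLF10 (Q13118). They were selected by their UniProt accessions, and 9 of the 10 accessions have a row among the 213543 features of the count table. JUNB was not analysed here. The files pair no accession with a gene name, so the names used here are those that UniProt assigns to the accessions. Transcripts were measured by RNA-seq in THP-1, a cell line from a human acute monocytic leukemia that carries the MLL-AF9 fusion gene. The untreated cells (0 h) were compared with cells given 0.2 µM GSK-LSD1, an inhibitor of the histone demethylase LSD1, for 8 h or 24 h, a treatment used to induce monocytic differentiation. Each time point is 1 library of total RNA depleted of ribosomal RNA, from 1 cell line, so no difference between time points has a replicate check and no p-value is given. The labels call the 0 h cells control and wildtype, and name no vehicle for them.

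AP-1 is a dimer of basic leucine zipper proteins. Fos proteins need a Jun partner to bind DNA, whereas Jun proteins can also pair with each other, and both bind the palindrome TGANTCA. ATF and CREB proteins share this zipper fold and prefer longer sites that fit TGACNTCA, of which TGACGTCA is the palindromic form. Many of these genes are immediate early genes, which cells switch on within minutes of a stimulus through MAP kinases, and in the myeloid lineage AP-1 is known for its part in monocyte and macrophage differentiation.

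Whether the members carry these motifs at their own promoters was read from RefSeq promoter sequences (GRCh38.p14), each covering 250 bases before and 50 bases after a transcription start. Both strands were searched. Of all 35116 promoters, 7.71% held TGANTCA and 7.72% held TGACNTCA. Of the 10 members, 8 have a promoter entry, the exceptions being ETV5 and KLF10, and 4 of these 8 held a match. This count takes either motif in any promoter of a gene, while the shares above are for 1 motif in 1 promoter, so the 2 cannot be set against each other. The windows below are 30 bases long and written in the direction of the gene, with the match in capitals.
FOSL2: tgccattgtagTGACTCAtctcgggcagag
JUN: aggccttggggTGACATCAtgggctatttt
JUND: ggccgcccccaTGACGTCAacccacaaggc
ATF3: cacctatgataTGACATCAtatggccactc
The FOSL2 window, at chr2:28392851-28392880 on the forward strand, holds the only match to TGANTCA among them, and the match starts 4 bases after the transcription start. The JUN window lies at chr1:58784096-58784125 on the reverse strand, with the match starting 67 bases before the start. The JUND window lies at chr19:18281804-18281833 on the reverse strand, 200 bases before the start, and the ATF3 window at chr1:212565273-212565302 on the forward strand, 123 bases before the start of 1 of its 2 promoters. A match describes these letters and does not show binding, and these libraries hold no measurement of binding.

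The libraries hold few counts assigned to features. The deposited counts of reads per feature summed to 1475938 at 0 h, 1310912 after 8 h and 1444011 after 24 h, and TMM scaling gave factors between 0.977 and 1.04. A level is given as CPM, the counts scaled to the TMM library size, in which 1 count was worth between 0.651 and 0.781 CPM. A feature was compared if any library gave it 10 or more counts, which kept 9609 features and 5 of the members (FOSL2, JUN, JUND, ETV5 and KLF10). Of the other members with a row, 2 were listed at 0 in every library (FOS and ATF3) and 2 had at most 9 counts (CREB3 and AHR). A log2 ratio compares the scaled counts of a pair of libraries, and its exact 95% interval covers counting error only, because each time point has 1 library. Reads that carry no molecular identifiers do not each stand for 1 molecule, so the interval may be too narrow even for that error. Ratios after 8 h and after 24 h share the 0 h library, so they are not independent of each other. In bulk RNA, fewer cells of a type and less RNA per cell cannot be told apart.

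FOSL2 had the highest counts of all members and the largest log2 ratios against 0 h of the 5 compared members. It encodes a Fos protein (also called Fra-2) that binds DNA with a Jun partner, from a gene on the forward strand of chromosome 2 (GRCh38, 28392448 to 28417317) whose canonical transcript has 4 exons and 6713 bp. FOSL2 had 735 counts at 0 h, 1350 after 8 h and 1688 after 24 h, which is 478, 1054 and 1188.5 CPM. Both treated libraries were high and the untreated library was low, and the counting intervals of the 3 levels did not overlap. FOSL2 was 2.20-fold higher after 8 h than at 0 h (log2 ratio 1.14, interval 1.01 to 1.27) and 2.48-fold higher after 24 h (log2 ratio 1.31, interval 1.19 to 1.44). Most of the difference was present by 8 h, with a log2 ratio of 0.17 (0.07 to 0.28) from 8 h to 24 h. After a loess correction for the trend on mean expression, its log2 ratio after 8 h was 1.001, and its log2 fold change with a prior count of 2 was 0.999 in place of 1.14, just under a threshold of 1. Of its exon bases, 0% lie under exons of other genes.

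**Figure D1:**
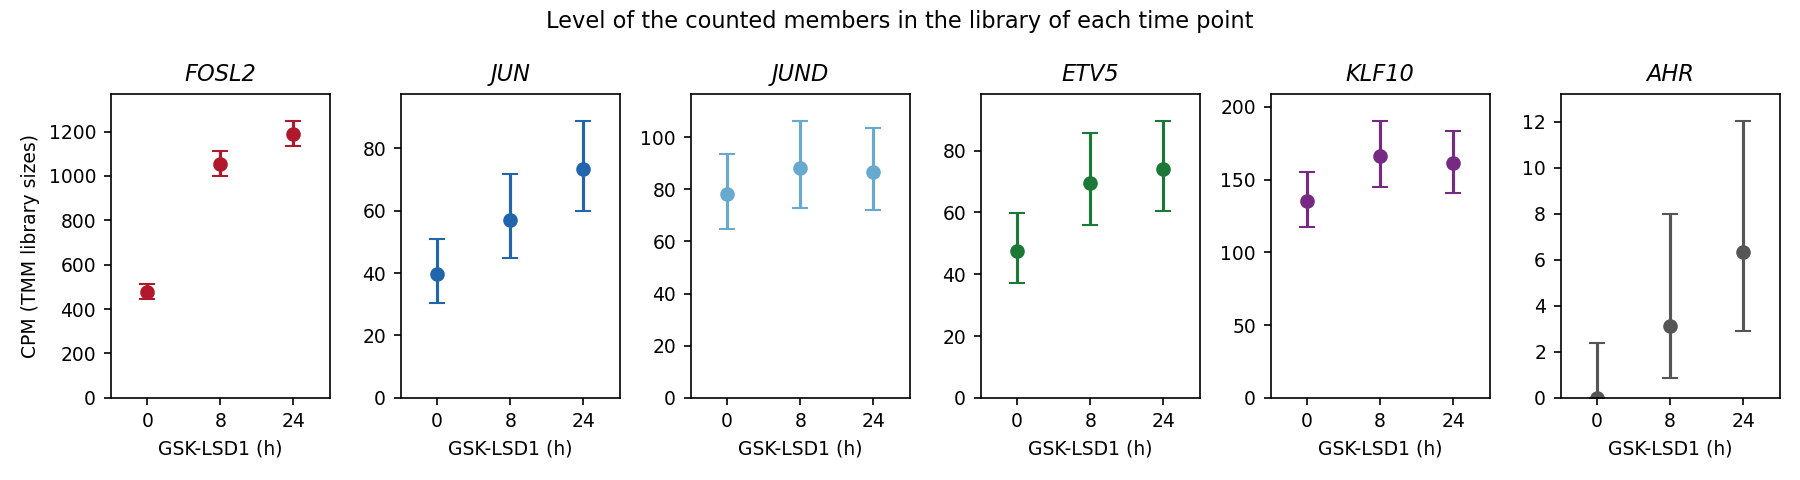
Level of 6 members in CPM (y axis, starting at 0, with a scale of its own in each panel) against hours of GSK-LSD1 (x axis). Each point is 1 library and each bar its exact 95% Poisson interval, which covers counting error only. FOSL2 stood at 478 CPM at 0 h and at 1054 and 1188.5 CPM in the treated libraries, JUN and ETV5 were highest after 24 h, and the bars of JUND and KLF10 overlapped across the libraries.

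FOS, the founding member of the family and a classic immediate early gene (chromosome 14, 75278826 to 75282230, forward strand), was listed at 0 in all 3 libraries. Such a zero allows up to 3 counts by a limit on 1 side, which is 1.95 CPM at 0 h, 2.34 CPM after 8 h and 2.11 CPM after 24 h. The Poisson interval used for levels, which has limits on both sides, ends at 2.40, 2.88 and 2.60 CPM. Genes that every cell uses were listed at 0 as well, including the kinase MAPK3, the chaperone PTGES3 and the signal transducer SMAD2, which were singled out after their values were seen. A listing at 0 is therefore not read here as absence of the transcript. Of 134 members and listed genes with a row, 38 were at 0 in all libraries, and GENCODE v44 gives each of these 38 at least 2 coding transcripts. Among the 67 genes with at least 10 counts, 9 have a single coding transcript, while the median number of coding transcripts was 4 in both sets. Whether the way reads were assigned to accessions set these zeros was not tested.

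Both other Fos genes had few counts. FOSB had 0, 1 and 1 counts and FOSL1 had 3, 3 and 4 counts in the same order of libraries, both named here after their values were seen. FOSL2 supplied all counts of the Fos members and most counts of the AP-1 members, as far as these are listed. The shares lack JUNB, take FOS and ATF3 at their listed 0 and use 1 UniProt entry per gene, so they are not shares of gene totals. Of the summed counts of FOS, FOSL2, JUN, JUND and ATF3, FOSL2 held 80.2% at 0 h (Wilson interval 77.5% to 82.7%), 87.9% after 8 h (86.2% to 89.4%) and 88.1% after 24 h (86.6% to 89.5%). After division by the length of the canonical transcripts, its share of FOSL2, JUN and JUND was 57.5%, 71.3% and 72.4%.

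The Jun members, which supply the obligate partners of Fos proteins, differed less between libraries. JUN, the founding Jun gene (chromosome 1, 58776845 to 58784048, reverse strand, 1 exon of 3257 bp), had 61 counts at 0 h, 73 after 8 h and 104 after 24 h, or 39.7, 57.0 and 73.2 CPM. The untreated library was lowest and the 24 h library highest, and the intervals of these 2 levels did not overlap. JUN had a log2 ratio of 0.52 (0.01 to 1.04) after 8 h and 0.88 (0.41 to 1.36) after 24 h against 0 h, and 0.36 (-0.08 to 0.81) from 8 h to 24 h. It did not pass a log2 fold change of 1 in any comparison.

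JUND, a Jun protein known for steady expression in many resting cells (chromosome 19, 18279694 to 18281622, reverse strand, 1 exon of 1929 bp), had 120, 113 and 123 counts, or 78.1, 88.3 and 86.6 CPM. The 3 libraries lay close together and all their intervals overlapped. Its log2 ratio was 0.18 (-0.21 to 0.56) after 8 h and 0.15 (-0.23 to 0.52) after 24 h, and it was -0.03 (-0.41 to 0.35) from 8 h to 24 h. A difference was not detectable with these counts, and the intervals leave room for a ratio of up to 0.56 on the log2 scale.

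Summed over JUN and JUND, the Jun counts were 181, 186 and 227. The log2 ratio of this sum was 0.30 after 8 h, with an interval from -0.00094 to 0.61 that reached 0, and 0.44 (0.15 to 0.73) after 24 h. JUN made up 33.7% of the sum at 0 h (Wilson interval 27.2% to 40.9%), 39.2% after 8 h (32.5% to 46.4%) and 45.8% after 24 h (39.5% to 52.3%). All of these intervals overlapped each other, including those of 0 h and 24 h. The summed AP-1 counts were 916, 1536 and 1915, with log2 ratios of 1.01 (0.89 to 1.13) after 8 h and 1.18 (1.06 to 1.29) after 24 h. These sums are carried by FOSL2 and lack JUNB.

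**Figure D2:**
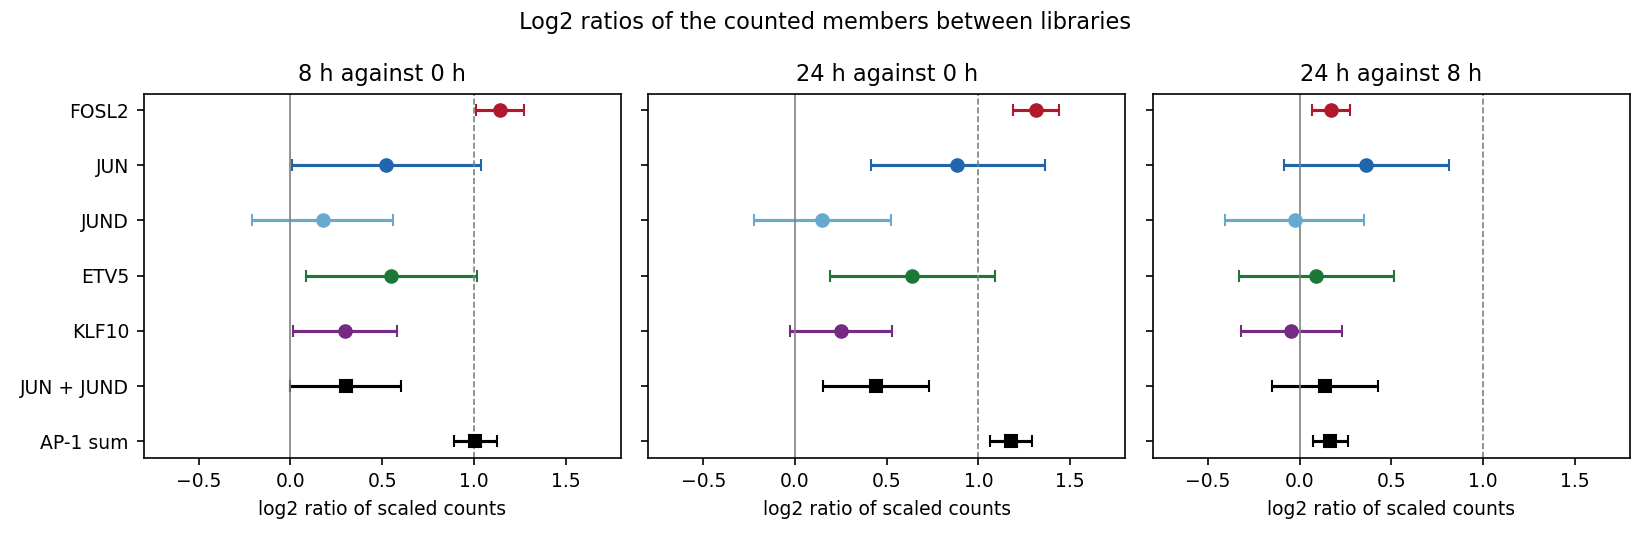
Log2 ratio of scaled counts (x axis) for 5 members, the sum of JUN and JUND and the AP-1 sum (y axis), in 1 panel per comparison. Bars are exact 95% counting intervals, the solid line marks no difference and the dashed line a log2 ratio of 1. FOSL2 lay above 1 after 8 h (1.14) and 24 h (1.31), JUND overlapped 0 in all panels, and only FOSL2 and the AP-1 sum lay wholly above 0 from 8 h to 24 h.

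ATF3, a stress-induced ATF protein that pairs with Jun proteins (chromosome 1, 212565334 to 212620777, forward strand), was listed at 0 in all libraries, with the same limits as FOS. CREB3, a membrane-bound factor that is cut and released from the secretory pathway (chromosome 9, 35732598 to 35736999, forward strand), had 1 count in each library. No ratio is given for either, since both counts of every pair were at or under 3. Exons of GBA2, on the other strand, cover 8.96% of the CREB3 exon bases, and whether reads were counted by strand is not given.

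ETV5, an ETS factor of the PEA3 group that acts downstream of ERK signalling (chromosome 3, 186046314 to 186110318, reverse strand, 13 exons, 4082 bp), had 73 counts at 0 h, 89 after 8 h and 105 after 24 h. These are 47.5, 69.5 and 73.9 CPM. The untreated library was lowest, and its interval overlapped that of 8 h but not that of 24 h. The log2 ratio of ETV5 was 0.55 (0.09 to 1.02) after 8 h, 0.64 (0.19 to 1.09) after 24 h and 0.09 (-0.33 to 0.51) from 8 h to 24 h. Exons of DGKG on the same strand cover 4.02% of its exon bases.

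KLF10, a zinc finger repressor induced by TGF-beta (chromosome 8, 102648784 to 102655725, reverse strand, 4 exons, 2915 bp), had 208, 213 and 229 counts, or 135, 166 and 161 CPM. All 3 intervals overlapped, with the untreated library lowest. The log2 ratio of KLF10 was 0.30 (0.01 to 0.58) after 8 h and 0.25 (-0.03 to 0.53) after 24 h, and it was -0.05 (-0.32 to 0.23) from 8 h to 24 h.

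AHR, a ligand-activated receptor that moves to the nucleus and pairs with ARNT (chromosome 7, 16916359 to 17346152, forward strand, 11 exons, 6243 bp), was listed at 0 at 0 h and had 4 counts after 8 h and 9 after 24 h. The treated libraries were the ones with counts, but all levels were near the limit of detection. Against a floor of 3 counts in the 0 h library, the fold of AHR after 24 h was 3.25 (log2 ratio 1.70). The counting interval of the ratio began lower, at 2.14-fold (log2 ratio 1.09). After 8 h the interval began at -0.34 and included 0. Of its exon bases, 41.8% lie under exons of other genes, including 1 on the same strand, so the origin of these few reads is uncertain.

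Compared per kilobase of the canonical transcript, the level of FOSL2 was 71.3 CPM per kb at 0 h, 157 after 8 h and 177 after 24 h, above every other member in each library. KLF10 came next with 46.4, 57.1 and 55.3 CPM per kb, followed by JUND with 40.5, 45.7 and 44.9. JUN had 12.2, 17.5 and 22.5 CPM per kb, and ETV5 had 11.6, 17.0 and 18.1. The counting intervals of KLF10 and JUND overlapped in each library, as did those of JUN and ETV5, so the order within these pairs is not set by the counts. Which transcripts of each gene the reads came from was not measured, and further UniProt entries of these genes were not looked for.

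Set against all features, 1 of the 5 members, FOSL2, was past a log2 fold change of 1 after 8 h (log2 CPM with a prior count of 2), where 4.51% of the 9609 features were past it in that direction. After 24 h, FOSL2 was again the only member past it, against 6.19% of features. From 8 h to 24 h no member was past it, against 4.03% of features, and no member was below -1 in any comparison, where 6.02% of features were after 8 h, 5.58% after 24 h and 1.97% from 8 h to 24 h. With so few members these counts are a description of single genes.

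Among the more deeply counted features, few had fold changes of the size of FOSL2. Of 618 features that reached 500 counts in a library, 11 were past a log2 fold change of 1 in the higher direction after 8 h and 16 after 24 h. FOSL2 had a value reached by 10 of these 618 features after 8 h and by 8 after 24 h, itself included. Among all 9609 features, many of them with few counts and wide intervals, 304 reached its value after 8 h and 338 after 24 h.

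By counting intervals, 4 members (FOSL2, JUN, ETV5 and KLF10) lay wholly above 0 after 8 h, against 11.7% of all features, and 3 (FOSL2, JUN and ETV5) after 24 h, against 13%. From 8 h to 24 h FOSL2 alone did so, against 4.87%. No member lay wholly below 0 in any comparison, against 9.71% of features after 8 h, 12.6% after 24 h and 5.58% from 8 h to 24 h. Genes with more counts have narrower intervals, so this share depends on depth. The members were also chosen with earlier results of these data known. With library sizes taken as total counts, 3 of the calls after 8 h were lost, since the intervals then ran from -0.08 to 0.94 for JUN, from -0.01 to 0.92 for ETV5 and from -0.08 to 0.49 for KLF10. The median log2 fold change of the 5 members was 0.51 after 8 h, 0.62 after 24 h and 0.09 from 8 h to 24 h, beside -0.01, -0.01 and 0.00 for all features. With total counts the median of all features was -0.10 after 8 h and -0.09 after 24 h.

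**Figure D3:**
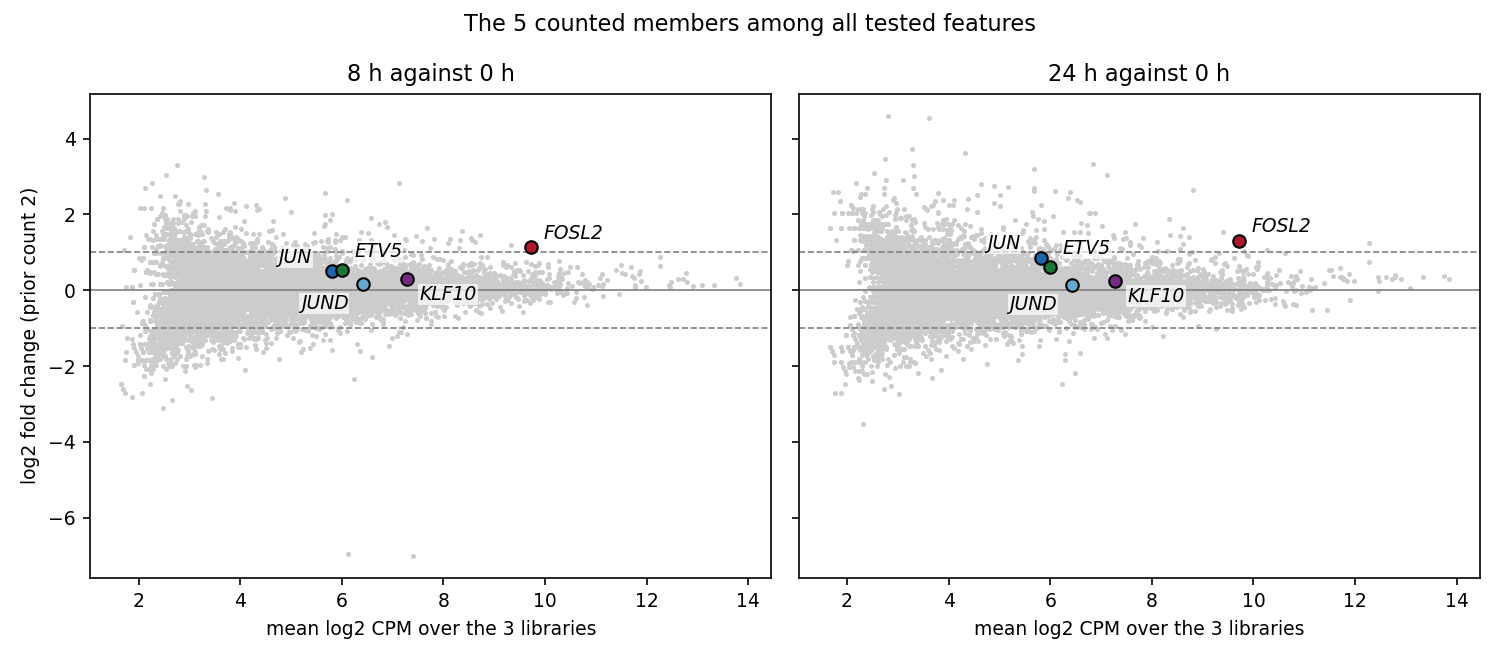
Log2 fold change with a prior count of 2 (y axis) against mean log2 CPM over the 3 libraries (x axis) for the 9609 features compared (grey), after 8 h and 24 h against 0 h, with 5 members marked. Dashed lines stand at 1 and -1. FOSL2 sat above the dashed line at high expression in both panels, where few grey points lie, and the other members sat inside the grey band, at or above 0.

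Genes of the same pathways were taken from 8 lists of 115 genes, of which 104 have a row and 54 had at least 10 counts in a library. By counting intervals, 20 of the 54 lay wholly above 0 after 8 h and 1 below, and 19 lay above and 5 below after 24 h. Over all features these shares were 11.7% above and 9.71% below after 8 h, and 13% and 12.6% after 24 h. From 8 h to 24 h, 5 lay above and 8 below, against 4.87% and 5.58% of all features. With total counts, calls above 0 against 0 h whose interval began near 0 would be lost, as for the members. The lists were chosen with earlier results of these data known, and calls by intervals depend on how many counts a gene has. A difference from the shares of all features is therefore not an independent result. Past a log2 fold change of 1, 8 were higher after 8 h and 11 after 24 h, and 0 were lower at either time. Of all features, 4.51% and 6.19% were higher, and 6.02% and 5.58% were lower. A gene was compared if any library gave it 10 counts. MAF, KLF2, SPRED1, PLAUR, CREB3L2 and DUSP1 reached this only in treated libraries, where they were higher. DUSP1 was named after its values were seen. With at least 50 counts in a library, 3 genes were higher after 8 h and 4 after 24 h. The per-list counts given next are read against the same shares. Over the 54 compared genes, the median log2 fold change was 0.12 after 8 h and 0.08 after 24 h, which is below that of the 5 members.

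Among other AP-1 and related leucine zipper genes, 24 of 25 have a row and 12 were compared. Of these, 4 lay above 0 after 8 h, and 3 above and 3 below after 24 h, with a median log2 fold change of 0.06 and -0.03. The large Maf gene MAF, a zipper factor of macrophages, had 2, 15 and 36 counts, with a log2 ratio of 4.28 (2.33 to 7.38) after 24 h against 0 h. NFE2, a zipper partner of small Maf proteins, had 15, 25 and 41 counts, with a log2 ratio of 1.56 (0.68 to 2.52) after 24 h. In the other direction, ATF5 had 161, 155 and 100 counts, with log2 ratios of 0.21 (-0.12 to 0.54) after 8 h and -0.57 (-0.95 to -0.20) after 24 h. Unlike FOSL2, MAF and NFE2 had at most 41 counts.

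In the list of CREB3 relatives and ER stress genes, 4 of 10 genes were compared, with a median log2 fold change of -0.16 after 8 h and -0.14 after 24 h. CREBZF, a zipper protein of the ATF/CREB group, had 148, 81 and 87 counts, with both treated libraries low and log2 ratios of -0.61 (-1.02 to -0.21) and -0.65 (-1.05 to -0.26). CREB3L2, a relative of CREB3, had 1, 3 and 10 counts, with a log2 ratio of 3.44 (0.62 to 8.87) after 24 h.

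Of 23 further immediate early genes, 9 were compared and 6 were listed at 0 throughout. Their median log2 fold change was 0.39 after 8 h and 0.65 after 24 h, 4 lay above 0 after 8 h and 3 after 24 h, and none lay below. KLF2 and DUSP1 (5, 6 and 11 counts) were compared only through their counts in treated libraries. The median after 8 h is the value of DUSP1, and both genes lay above the median after 24 h. These medians therefore depend on the filter. KLF6, a zinc finger factor, had 53, 120 and 107 counts, with log2 ratios of 1.44 (0.96 to 1.94) after 8 h and 1.13 (0.64 to 1.63) after 24 h. BTG2, an antiproliferative gene, had 66, 83 and 111 counts, with log2 ratios of 0.59 (0.11 to 1.08) and 0.86 (0.41 to 1.33). MCL1, a survival factor, had 65, 90 and 82 counts, with log2 ratios of 0.73 (0.26 to 1.22) after 8 h and 0.45 (-0.04 to 0.94) after 24 h. KLF2, a relative of KLF6, had 2, 12 and 6 counts, with log2 ratios of 2.85 (0.68 to 6.05) and 1.70 (-0.79 to 5.04).

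Genes of the MAP kinase path, which phosphorylates Jun and Fos proteins, had smaller ratios. Of 15 listed genes 8 were compared, 1 lay above 0 after 8 h, and 3 lay above and 1 below after 24 h, with a median log2 fold change of 0.06 and 0.14. MAPK14, the p38 alpha kinase, had 397, 403 and 519 counts, with log2 ratios of 0.28 (0.08 to 0.49) after 8 h and 0.50 (0.31 to 0.69) after 24 h. RPS6KA3, a kinase downstream of ERK, had 177, 150 and 228 counts, with log2 ratios of 0.02 (-0.30 to 0.35) and 0.48 (0.19 to 0.77). MAP2K7, which activates JNK, had 88, 97 and 109 counts, with log2 ratios of 0.40 (-0.03 to 0.84) and 0.42 (0.0035 to 0.84). MAPK9, a JNK that phosphorylates JUN, had 136, 115 and 95 counts, with log2 ratios of 0.02 (-0.35 to 0.39) and -0.40 (-0.80 to -0.02).

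For the surroundings of ETV5, 5 of 8 listed PEA3 factors and ERK feedback genes were compared, and 2 lay above 0 at both times. DUSP4, a phosphatase that inactivates MAP kinases, had 30, 85 and 123 counts, low in the untreated library, and log2 ratios of 1.77 (1.15 to 2.42) and 2.15 (1.56 to 2.78). SPRED1, a Ras pathway inhibitor, had 4, 12 and 15 counts, with log2 ratios of 1.85 (0.13 to 3.94) and 2.02 (0.37 to 4.07). The list's median was 0.19 after 8 h and 0.00 after 24 h, and the intervals of the other 3 genes included 0.

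For the AHR pathway, 7 of 10 listed genes were compared, 5 lay above 0 after 8 h and 3 after 24 h, with a median log2 fold change of 0.14 and 0.07. CYP1B1, a cytochrome P450 gene that AHR can activate, had 123, 262 and 300 counts, with log2 ratios of 1.35 (1.04 to 1.67) and 1.40 (1.09 to 1.71). NQO1, a quinone reductase under AHR and NRF2 control, had 44, 62 and 101 counts, with log2 ratios of 0.76 (0.18 to 1.35) and 1.31 (0.79 to 1.86). ARNT, the partner of AHR, had 85, 99 and 87 counts, with log2 ratios of 0.48 (0.05 to 0.92) after 8 h and 0.15 (-0.30 to 0.60) after 24 h. The chaperone HSP90AB1, which holds AHR in the cytoplasm, had 12718, 11673 and 12357 counts, with log2 ratios of 0.14 (0.10 to 0.18) and 0.07 (0.04 to 0.11). A change of library sizes moves every ratio of a comparison by the same amount. With total counts FOSL2 had 1.05 after 8 h and 1.23 after 24 h, in place of 1.14 and 1.31. That shift would bring the intervals of ARNT after 8 h and of HSP90AB1 after 24 h to include 0. CYP1A1, the best known target of AHR, was listed at 0 in all libraries. In the same list AHRR had 279, 224 and 256 counts, with log2 ratios of -0.05 (-0.31 to 0.20) and -0.01 (-0.26 to 0.24). TIPARP had 3, 5 and 3 counts. CYP1A1, AHRR and TIPARP were singled out after their values were seen.

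In the TGF-beta list, to which KLF10 belongs by its induction, 6 of 12 genes were compared, 2 lay above 0 at each time and none below, with a median log2 fold change of 0.13 and -0.01. SMAD7, an inhibitor of the pathway, had 57, 78 and 46 counts, with log2 ratios of 0.72 (0.20 to 1.23) after 8 h, -0.20 (-0.79 to 0.39) after 24 h and -0.91 (-1.47 to -0.37) from 8 h to 24 h. SMAD3, which carries the signal to the nucleus, had 170, 149 and 204 counts, with log2 ratios of 0.07 (-0.25 to 0.40) after 8 h and 0.38 (0.08 to 0.68) after 24 h. SP1, a zinc finger factor related to the KLF family, had 1233, 1177 and 1275 counts, with log2 ratios of 0.20 and 0.16.

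Of 12 genes known as AP-1 targets, 7 have a row and 3 were compared, with a median log2 fold change of 0.33 after 8 h and 0.34 after 24 h. PLAUR, the urokinase receptor, had 2, 10 and 11 counts, with log2 ratios of 2.58 (0.35 to 5.82) and 2.57 (0.38 to 5.79). CD44, an adhesion receptor, had 413, 433 and 485 counts, with log2 ratios of 0.33 (0.13 to 0.53) and 0.35 (0.15 to 0.54). With 3 genes, this list describes single genes.

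**Figure D4:**
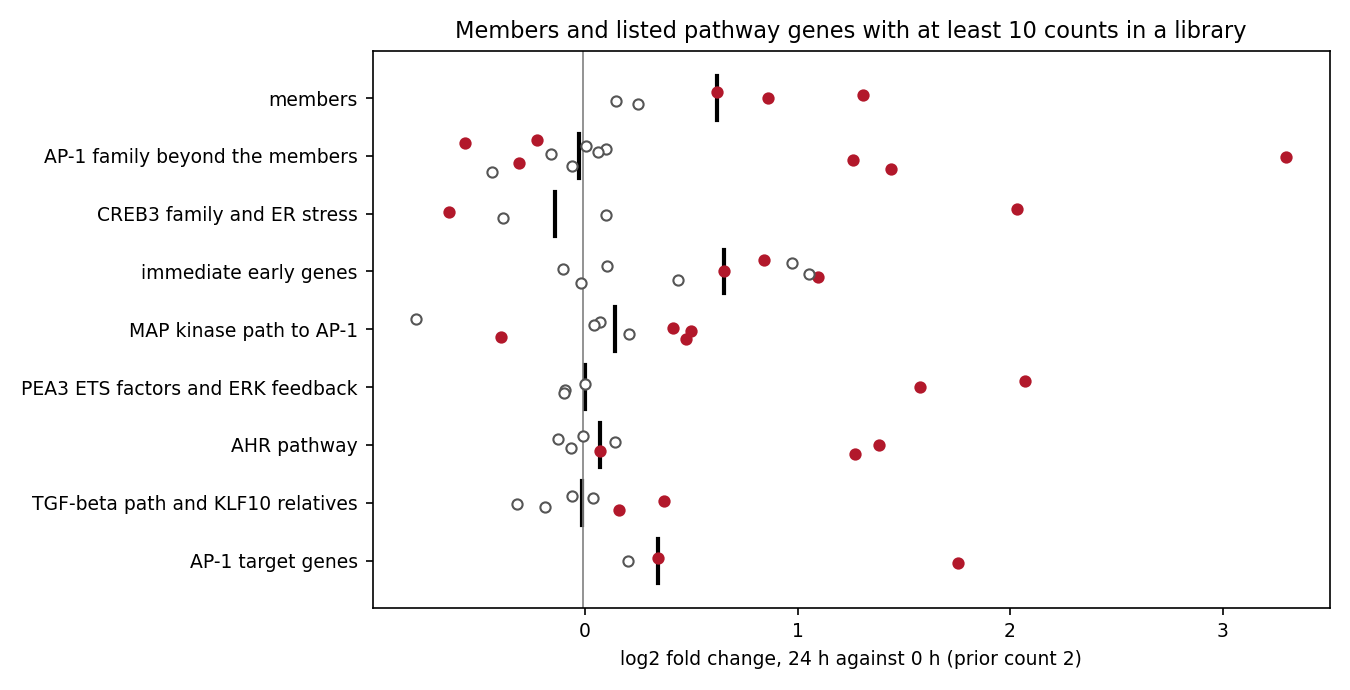
Log2 fold change after 24 h against 0 h with a prior count of 2 (x axis) for the 5 members and the compared genes of 8 pathway lists (y axis). Filled points have a counting interval wholly above or below 0, open points do not, black bars are medians and the grey line is the median of all features. The medians of the members (0.62) and of the immediate early genes (0.65) lay to the right of the other lists. The immediate early median includes KLF2 and DUSP1, which were compared only through treated libraries. Every list but those of the MAP kinase path and TGF-beta held at least 1 gene past a log2 fold change of 1.

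The listed genes whose log2 ratios after 8 h and 24 h lay nearest to those of a member were found among 45 listed genes with at least 50 counts in a library. The measure was the Euclidean distance over these 2 ratios from 3 libraries. For FOSL2 these were CYP1B1 at a distance of 0.231 and KLF6 at 0.355. For JUN they were BTG2 at 0.0742 and PECAM1 at 0.167, for JUND they were SP1 at 0.0234 and HSP90AB1 at 0.0856, for ETV5 they were SPI1 at 0.0625 and CD4 at 0.0885, and for KLF10 they were CD44 at 0.0991 and SP1 at 0.136. FOSL2 had the most distant neighbours of the 5 members. For JUN, JUND, ETV5 and KLF10 the counting intervals of the ratios were far wider than these distances. Their nearest genes are therefore not set by the counts.

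The member genes also have 16 transcripts listed under identifiers of their own, none of them with an annotated coding sequence, and 6 of these had counts. Together they held 3 counts at 0 h, 4 after 8 h and 9 after 24 h, and the counting interval of each ratio included 0. For FOS these were 1, 2 and 3 counts of a transcript with no annotated coding sequence, and for ATF3 they were 1, 2 and 2. Further UniProt entries of the member genes were not looked for, so reads of FOS or ATF3 may be listed elsewhere. FOSL2 had 0, 0 and 1.

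The sum of the monocyte markers was higher in the treated libraries too. The larger part of its difference lay between 8 h and 24 h. LYZ and ITGAM were the only compared markers whose counting interval lay wholly above 0 from 8 h to 24 h. The median log2 fold change of the 7 compared markers was 0.58 after 8 h, 0.66 after 24 h and 0.12 from 8 h to 24 h. Of these markers, CD86 and FCGR1A reached 10 counts only in treated libraries. FCGR1A was named after its values were seen. The 11 markers summed to 687 CPM at 0 h, 989 CPM after 8 h and 1825 CPM after 24 h, with 7, 9 and 9 of the 11 detected and the defining markers CD33 and CSF1R, named after their values were seen, listed at 0 throughout. Of the 2592 marker counts in the 24 h library, 1773 were those of LYZ. Of the 10 markers of other cells, 7 were listed at 0 throughout. PECAM1, which monocytes express too, supplied nearly all their counts, and without it they held 1, 4 and 3 counts. The part of the monocyte genes in the ratios of the members was not tested.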

How the data were processed

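RNA-seq of THP-1 cells at 0 h, 8 h and 24 h of GSK-LSD1 was used, with 1 library per time point grouped by the sample labels. The authors deposited raw read counts for each feature, not normalized. The submitters' processing notes name fastp, STAR and hg38, while the counting tool, its annotation and strand setting, and how shared reads were handled are not given in the sources used here. The 10 members and the 10 gene lists (136 genes, 125 with a row) were chosen with earlier results of these data known, and accessions were paired with genes by UniProt assignment. JUNB and 11 listed genes were not analysed here.

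TMM factors were computed in edgeR 4.0.16 over features that reached 10 counts in any library. Fold changes used log2 CPM with a prior count of 2, and a threshold of 1. Ratios used no prior count and exact (Clopper-Pearson) 95% intervals conditional on the sum of both counts, levels used exact Poisson intervals and shares Wilson intervals. All cover counting error only. A ratio against a count of 0 was computed against 3 counts. The design had named a bound for all counts at or under 3, but for counts of 1 to 3 the ratio itself is given with its interval. Ratios were omitted where both counts were at or under 3. Scripts were tested on simulated data. DESeq2 1.42.0 gave alternative size factors in R 4.3.3, and other steps used Python 3.11.15, pandas 2.3.3, scipy 1.17.1 and statsmodels 0.14.6. Gene models came from GENCODE v44 (GRCh38).

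Named genes were the members, up to 4 compared genes per list whose interval excluded 0 at 8 h or 24 h with the largest ratios, and the 2 listed genes nearest to each member. Not every gene that this rule names is reported here. Genes outside this rule are marked as chosen after their values were seen.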

Additional observations from a re-analysis of the deposited data

How the results depend on the processing

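No paired analysis was possible because the labels give no replicate numbers and each time point has 1 library, and for the same reason no library could be left out. The alternatives were library sizes from DESeq2 or from total counts (mitochondrial transcripts kept or left out), other filters, prior counts and thresholds, a loess correction, calls by counting intervals and, chosen after seeing the data, TMM over all features. Of 166 alternative values of 30 log2 ratios, 163 stayed within the counting interval of the reported value and 0 reversed. Many intervals are wide and those of AHR against 0 h have no upper limit, so staying within them says little. The interval calls of JUN, ETV5 and KLF10 after 8 h were lost with total counts all the same. FOSL2 ranged from 1.001 to 1.16 after 8 h and from 1.23 to 1.32 after 24 h. The 3 values outside their interval came from the loess correction after 8 h, with log2 ratios of 1.001 for FOSL2, 0.86 for the AP-1 sum and 0.72 for the sum of all members (0.88 as reported). Numbers of features past the threshold, as reported, were 433 higher with 578 lower after 8 h, 595 with 536 after 24 h, and 387 with 189 from 8 h to 24 h. In that order, higher with lower, no filter on low counts gave 3277 with 2319, 2474 with 1999, and 1865 with 2778. A filter of 50 counts gave 88 with 60, 132 with 76, and 24 with 5. A threshold of 2 gave 39 with 29, 94 with 32, and 20 with 5. A prior count of 0.5 gave 293 lower from 8 h to 24 h. A prior count of 5 gave 255 with 294 after 8 h, 294 lower after 24 h, and 156 with 78 from 8 h to 24 h. The loess correction gave 282 lower after 8 h, 325 lower after 24 h, and 194 with 317 from 8 h to 24 h. Counting intervals off 0 gave 1122 with 933, 1247 with 1212, and 536 lower from 8 h to 24 h. Members past the threshold (1 after 8 h, 1 after 24 h and 0 between them) became 2 and 2 without a filter, 0 and 0 with a threshold of 2, 0 after 8 h with the loess correction, and 4, 3 and 1 by counting intervals. Listed genes (8, 11 and 2 higher, 0 lower) became 14 higher after 8 h, 1 lower after 24 h and 3 lower from 8 h to 24 h without a filter, 3, 4 and 0 higher with at least 50 counts, and 1, 3 and 0 with a threshold of 2. From 8 h to 24 h they became 1 higher with TMM over all features, 1 lower with a prior count of 0.5, 0 higher with a prior count of 5, and 0 higher and 1 lower with the loess correction. By counting intervals they were 20 higher and 1 lower, 19 and 5, and 5 and 8. Fewer features are compared under the stricter filter and more without one, and the cause of the other shifts was not tested. With these counts no ratio could be given for FOS, ATF3 and CREB3, and that of AHR rests on at most 9 counts.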

Other observations

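The monocyte marker list held the largest single ratio among the listed genes named here. Of 11 markers 7 were compared, 5 (LYZ, ITGAM, SPI1, CD86 and CD4) lay wholly above 0 by counting intervals after both 8 h and 24 h, and none lay below, with a median log2 fold change of 0.58 after 8 h and 0.66 after 24 h. CD86, a costimulatory protein of antigen-presenting cells, had 1, 19 and 37 counts, with a log2 ratio of 5.32 (2.76 to 10.66) after 24 h. CD86 and FCGR1A (4, 11 and 6 counts, named after its values were seen) reached 10 counts only in treated libraries, where they were higher. Both are among the 7 compared markers, so the number above 0 and the medians depend on this filter. ITGAM, the integrin CD11b, had 87, 120 and 339 counts, and LYZ, the lysozyme gene, had 655, 747 and 1773 counts. Their log2 ratios were 0.73 (0.32 to 1.14) and 0.45 (0.30 to 0.61) after 8 h, and 2.08 (1.73 to 2.43) and 1.55 (1.42 to 1.68) after 24 h. From 8 h to 24 h they were 1.35 (1.04 to 1.66) for ITGAM and 1.10 (0.97 to 1.22) for LYZ, where FOSL2 had 0.17 (0.07 to 0.28). No other compared marker of this list lay wholly above 0 from 8 h to 24 h, and the list's median there was 0.12. SPI1, the transcription factor PU.1, had 69, 87 and 102 counts, with log2 ratios of 0.60 (0.12 to 1.07) and 0.68 (0.22 to 1.14). PECAM1, an adhesion receptor listed with the markers of other cells, had 1270, 1430 and 1962 counts, with a log2 ratio of 0.74 (0.64 to 0.84) after 24 h.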
